A study of Mus musculus with 8 samples.

Results

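Rab proteins are small GTPases that sit on membranes and decide which vesicle meets which compartment. The 59 Rab genes described here were taken from the 19938 genes that the array annotation named by exactly 1 symbol. Their symbols had the form Rab plus a number and at most a letter and a further digit, and a gene with several rows on the array was read from its brightest row over all 8 arrays. The 59 genes covered 62 rows, since Rab2a, Rab5b and Rab11b had 2 rows each. The rule for picking rows used names and overall brightness. The members and the role lists were, however, chosen with earlier results of these data known.

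The RNA came from primary mammary tumors of under 1.0 cm in FvB mice with the MMTV-Neu genotype, a transgene that drives the Neu (Erbb2) receptor from a mammary tumor virus promoter active mainly in mammary epithelium, and was hybridised to 8 Mouse Gene 1.0 ST arrays from Affymetrix. Sorting took tumor-initiating cells (TIC) and a CD24- fraction, labelled as non-tumor-initiating, from each tumor or pool, giving 4 arrays of each. Whether some cells fell in neither fraction is not known here. Pairs came from tumors N251, N260 and N283 and from an equal mixture of N222 and N229, so 5 tumors gave 4 pairs, and all mice carried the transgene. Neither the TIC gate's markers nor the ages of the mice are known here. Values below are log2 intensities, listed in the order N251, N260, N283 and pool, and a difference is the TIC value minus the CD24- value of the same tumor.

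A Rab is switched on when an exchange factor (GEF) loads it with GTP and off when an activating protein (GAP) makes it cut that GTP. It is anchored by lipid tails that escort proteins and a geranylgeranyl transferase add, and it works through effectors such as tethers and motors. Most Rabs are made in every cell, while some are known from polarized or secreting epithelium and others from the phagosomes and granules of leukocytes. That split is the contrast examined, with 6 epithelial and 10 leukocyte Rabs. The list names follow these known roles and do not mean that a gene was confined to those cells here. The other genes were grouped as 10 of the endoplasmic reticulum (ER) and Golgi, 13 of early and recycling endosomes, 7 of late endosomes and lysosomes, 7 known mainly from neurons and 6 of cilia, melanosomes and other roles.

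The sorted fractions differed in leukocyte markers. The mean of 10 pan-leukocyte markers was 11.10, 10.29, 9.43 and 8.75 in the CD24- fraction and 7.18, 6.93, 6.95 and 7.04 in the TIC fraction, and 6 of the 10 were called lower in TIC. For 11 macrophage markers it was 12.19, 11.26, 10.34 and 9.68 against 6.67, 6.54, 6.47 and 6.84, with 9 called lower. Ptprc, the pan-leukocyte surface phosphatase, had a difference of -4.29 (SE 0.499, adjusted p = 0.0265) and Csf1r, the macrophage growth factor receptor, one of -5.06 (SE 0.454, adjusted p = 0.0189). The mean of 10 luminal epithelial markers was 9.74, 10.50, 10.67 and 10.65 in CD24- and 10.81, 10.81, 10.73 and 10.72 in TIC, with 0 called. Epcam, the epithelial adhesion molecule, averaged 11.69 ± 0.42 (SD, n = 4) in CD24- and 12.09 ± 0.08 (SD, n = 4) in TIC, and the keratin Krt8 averaged 12.30 ± 0.68 and 12.73 ± 0.24. Krt19 of the same list averaged 6.29 and 6.36, near the lower quartile of the arrays. The basal keratins were also dim, with Krt5 at 6.16 and 6.19, Krt14 at 6.56 and 6.54 and Krt17 at 5.61 and 5.73, and of 7 basal and myoepithelial markers Oxtr was called, higher in TIC. The CD24- array of N251 was the lowest of its group in the luminal mean and the highest in both leukocyte means. In bulk RNA, fewer cells of a type and less RNA per cell cannot be told apart.

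The plan was to show promoters of called Rabs, but no Rab was called with the tumor fitted as a block. Promoters of 4 members of the epithelial and leukocyte lists, picked afterwards and not called, are shown instead to let their start regions be compared. Each is the 250 bases before the RefSeq transcription start (assembly GRCm38.p6), 5′ to 3′ on the gene's strand. Rab32 (chr10:10558208-10558457, minus strand) and Rab8b (chr9:66919706-66919955, minus strand) are from the leukocyte list. Rab25 (chr3:88548280-88548529, minus strand) and Rab3d (chr9:21918184-21918433, minus strand) are from the epithelial list. Capitals mark a match to GAGGAAGT, a core of the binding motif of the myeloid factor PU.1.
Rab32: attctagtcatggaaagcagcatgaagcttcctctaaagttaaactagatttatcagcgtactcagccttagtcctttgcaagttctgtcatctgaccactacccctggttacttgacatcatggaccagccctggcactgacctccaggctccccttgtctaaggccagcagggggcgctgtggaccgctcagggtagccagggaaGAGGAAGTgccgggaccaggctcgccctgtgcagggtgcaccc
Rab8b: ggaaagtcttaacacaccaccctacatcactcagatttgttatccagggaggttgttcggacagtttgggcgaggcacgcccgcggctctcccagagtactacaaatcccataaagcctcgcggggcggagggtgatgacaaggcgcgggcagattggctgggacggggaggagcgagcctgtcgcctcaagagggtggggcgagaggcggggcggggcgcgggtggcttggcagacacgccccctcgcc
Rab25: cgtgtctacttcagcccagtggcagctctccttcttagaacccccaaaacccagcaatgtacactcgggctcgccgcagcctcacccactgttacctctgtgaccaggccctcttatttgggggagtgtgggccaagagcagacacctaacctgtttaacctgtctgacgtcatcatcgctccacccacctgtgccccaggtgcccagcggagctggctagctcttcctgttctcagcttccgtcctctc
Rab3d: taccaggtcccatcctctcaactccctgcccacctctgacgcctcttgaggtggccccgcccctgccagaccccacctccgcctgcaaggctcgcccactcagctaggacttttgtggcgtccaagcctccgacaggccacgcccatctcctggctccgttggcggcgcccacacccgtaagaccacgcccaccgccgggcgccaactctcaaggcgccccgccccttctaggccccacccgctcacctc

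The table held 60 promoters for 48 of the 59 Rab genes. GAGGAAGT was searched on both strands, as itself and as ACTTCCTC, and occurred in 2 Rab promoters (3.33%) and in 802 of all 32851 promoters (2.44%). These were the Rab32 promoter, with the first base of the match 43 bases before the start, and a Rab2b promoter, with it 175 bases before. Rab32 was thus the only leukocyte-list gene among these promoters with a match. AACCGGTT, a core of the grainyhead-like motif of epithelial cells, which reads the same on both strands, occurred in 38 promoters (0.116%) and in 0 of the 60. A match is a description of these letters and not a measured binding site.

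Of the 59 Rab genes, 0 were called lower and 0 higher in TIC at an adjusted p under 0.05 when the tumor was fitted as a block. Among all genes, 1.09% were called lower and 0.863% higher. With no block 0 Rabs were called either, against 0.742% of all genes lower and 0.0502% higher. With the tumor as a random block, 3 Rabs (5.08%) were called higher (Rab38, Rab30 and Rab18) and 0 lower. The backgrounds in that fit were 2.16% higher and 3.04% lower. Before adjustment, p fell under 0.05 in the blocked fit for 5 Rabs (8.47%) on the lower side and 11 (18.6%) on the higher side, and for all genes the shares were 8.08% and 14.2%. Apart from the 5.08% higher with the random block, which rested on 3 genes and was not tested, the Rab shares were near the background. The median TIC SD of a Rab gene was 0.143 and the median CD24- SD 0.251, and 42 of the 59 had the larger SD in the CD24- fraction, as did 65.3% of all genes.

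Differences ran from -0.95 for Rab8b to 0.73 for Rab30, with 10 genes of 0.5 or more in size. The mean difference was above 0 for 40 of 59 Rabs (67.8%) and 59.5% of all genes, and the median was 0.106 for Rabs and 0.038 for all genes. The size of this lean varied with the scaling and with N251. Under cyclic loess 30 of the 59 were above 0 and the Rab median was 0.006, beside -0.002 for all genes. Quantile normalization left 40 above 0, with medians of 0.073 for Rabs and 0.056 for all genes. Median centring gave 42 above 0, with medians of 0.139 and 0.071. Without N251 the count was 39, and the Rab median was 0.033, beside 0.030 for all genes. TIC was higher in all 4 tumors for 19 Rabs (32.2%, background 23.2%) and lower in all 4 for 6 (10.2%, background 11.8%). The values of the 2 fractions did not overlap, with TIC higher, for Rab5a, Rab18, Rab23, Rab30 and Rab38 (8.47%, background 5.19%). They did not overlap with TIC lower for Rab8b and Rab43 (3.39%, background 4.68%). Tumor N251 gave the largest difference in size for 42 of the 59 Rabs and for 51.0% of all genes. Without it, the mean difference of 35 of the 59 Rabs shrank by over 1.5 times or changed sign. The matching share of all genes was not computed. The Rab differences had an SD of 0.699 in that tumor, against 0.339, 0.219 and 0.234 in N260, N283 and the pool. For all genes the SDs were larger in every tumor, at 0.823, 0.567, 0.43 and 0.367, and N251 was again the widest.

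**Figure D1:**
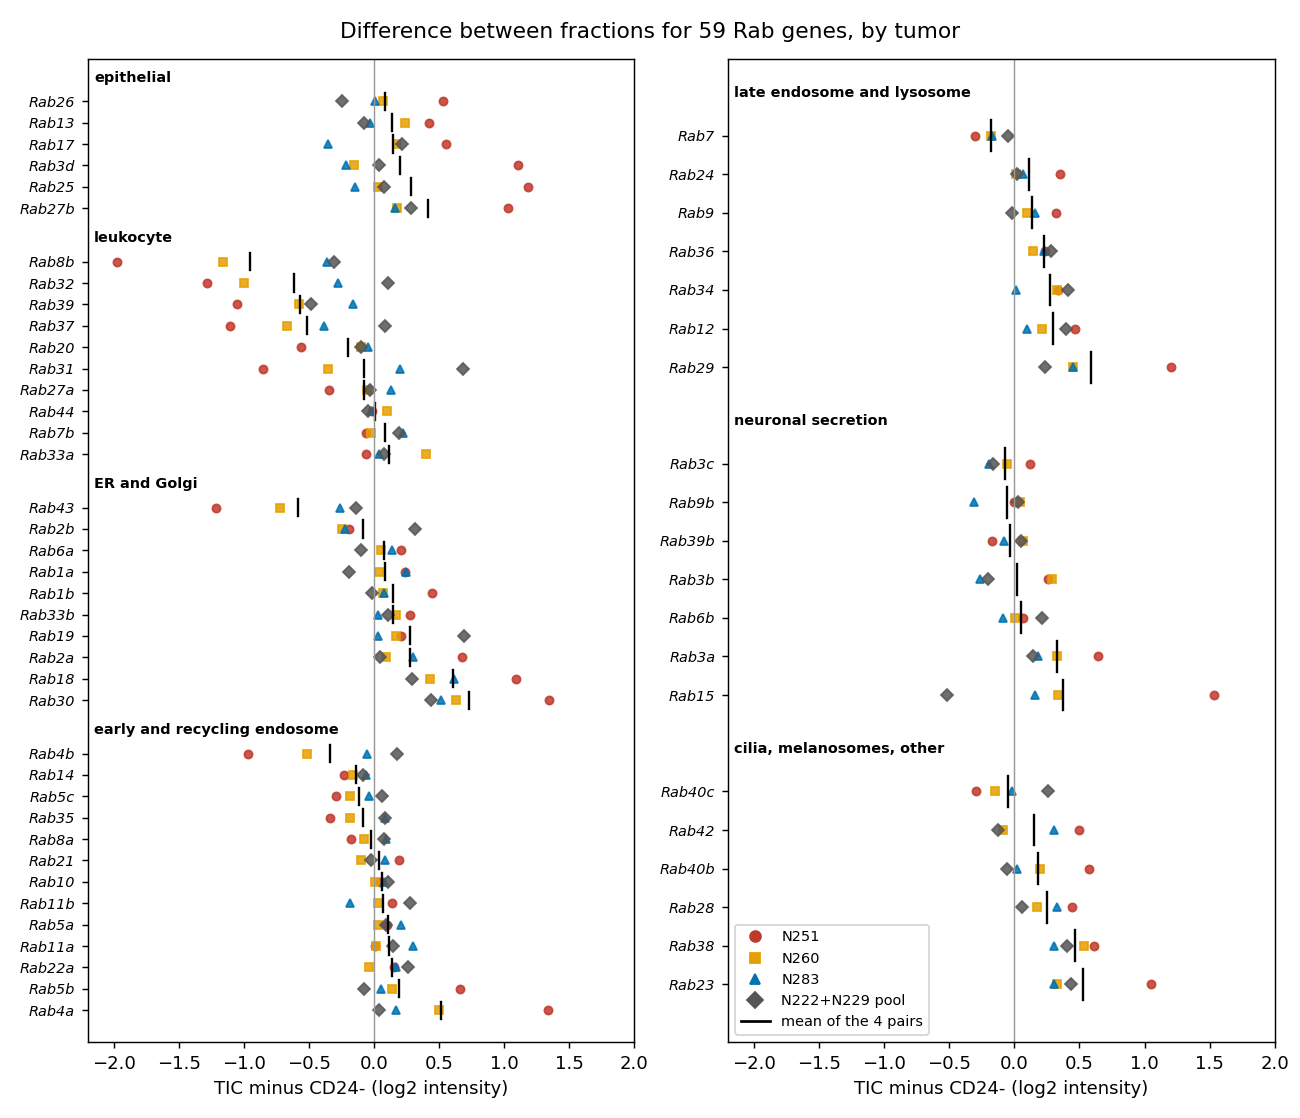
TIC minus CD24- difference of log2 intensity (horizontal axis) for each of the 59 Rab genes, grouped by role, with 1 symbol per tumor and a bar at the mean of the 4 pairs. The N251 symbols lie farthest from 0 for 42 genes, and the means run from -0.95 (Rab8b) to 0.73 (Rab30).

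The 6 epithelial Rabs had a mean difference above 0 for each gene and a list mean of 0.21 ± 0.40 (SD over 4 tumors), with a median of 0.17, but 0 of the 6 were called. By tumor the list mean difference was 0.80, 0.09, -0.10 and 0.05, and without N251 it was 0.01. The mean level was 8.30, 8.97, 9.14 and 9.28 in CD24- and 9.11, 9.05, 9.04 and 9.32 in TIC. The CD24- array of N251 was the lowest of the 8, and it also held the lowest luminal marker mean and the highest leukocyte marker means; the part of these cells in the result was not tested.

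Rab25, a Rab11 relative of the apical recycling endosome of epithelium, read 10.45, 11.60, 11.51 and 12.36 in CD24- and 11.63, 11.63, 11.37 and 12.44 in TIC. The pool was highest in both fractions and the fractions overlapped. The difference was 0.29 (SE 0.227, adjusted p = 0.504) and -0.01 without N251. Rab3d, which acts on the secretory granules of exocrine cells, read 9.58, 10.90, 10.87 and 11.20 in CD24- and 10.69, 10.75, 10.66 and 11.24 in TIC. N251 alone separated the fractions, with a mean difference of 0.20 (adjusted p = 0.666) that was -0.11 without it. Rab27b, which docks granules and exosome-bearing endosomes at the plasma membrane, read 6.71, 7.55, 7.58 and 7.79 in CD24- and 7.74, 7.73, 7.74 and 8.07 in TIC. It was the 1 epithelial Rab with TIC higher in all 4 tumors, with a difference of 0.41 (SE 0.163, adjusted p = 0.218) and 0.21 without N251.

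Rab17, a Rab of transcytosis and apical recycling, averaged 9.66 ± 0.41 in CD24- and 9.80 ± 0.28 in TIC (SD, n = 4), with differences of 0.55, 0.17, -0.36 and 0.21 and an adjusted p of 0.615. Rab13, of tight junction assembly, differed by 0.42, 0.24, -0.03 and -0.08 (adjusted p = 0.497). Rab26, another granule Rab, differed by 0.53, 0.07, 0.00 and -0.25 (adjusted p = 0.747). In these 3 genes the sign varied over the tumors, and the 95% intervals were -0.23 to 0.52, -0.13 to 0.40 and -0.24 to 0.42, so that shifts of up to about those sizes were not resolved.

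The 10 leukocyte Rabs had a list mean difference of -0.28 ± 0.34 (SD over 4 tumors) and a median of -0.14, with a mean below 0 for 7 of the 10 and 0 called. By tumor the mean was -0.73, -0.34, -0.07 and 0.02, and it was -0.13 without N251. Levels averaged 8.32, 7.81, 7.66 and 7.48 in CD24- and 7.59, 7.46, 7.59 and 7.50 in TIC. In TIC, Rab31, Rab7b, Rab8b, Rab20, Rab27a and Rab44 averaged 9.69, 8.98, 8.63, 8.08, 7.68 and 7.58, above all array medians (7.03 to 7.18). The TIC means of Rab32, Rab37, Rab39 and Rab33a were 7.01, 6.99, 6.08 and 4.625, below those medians. Ptprc averaged 5.90 in TIC. The order of the 4 CD24- arrays was that of the pan-leukocyte and macrophage marker means, while both markers and Rabs varied little among the TIC arrays; the part of leukocyte content in these values was not tested. Epithelial minus leukocyte, the list means differed by 1.53, 0.43, -0.03 and 0.03 by tumor, with a mean of 0.49 ± 0.73 (SD) and 0.14 without N251. The contrast between the lists was therefore present in N251 and N260 and near 0 in N283 and the pool.

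**Figure D2:**
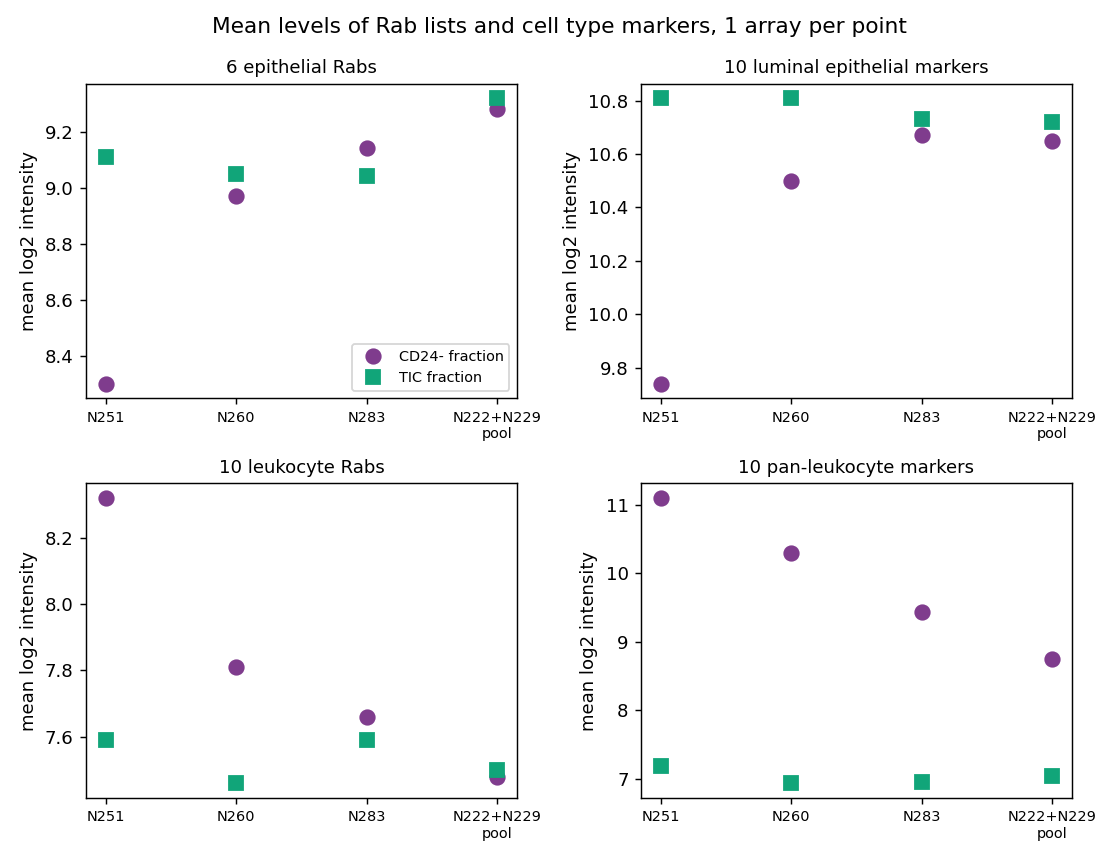
Mean log2 intensity (vertical axis, a separate range in each panel) per array of the 6 epithelial Rabs, 10 luminal markers, 10 leukocyte Rabs and 10 pan-leukocyte markers, by tumor, with circles for CD24- and squares for TIC. The CD24- leukocyte Rab mean was 8.32 in N251 and 7.48 in the pool, and the pan-leukocyte marker mean was 11.10 and 8.75.

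Rab8b, a relative of Rab8a in traffic to the plasma membrane, was the leukocyte-list gene with the largest difference. It read 10.48, 9.71, 9.07 and 9.05 in CD24- and 8.51, 8.56, 8.70 and 8.74 in TIC. Every CD24- array lay above every TIC array. The difference was -0.95 (SE 0.29, 95% interval -1.67 to -0.235, adjusted p = 0.151), a 1.93-fold higher CD24- level, and -0.61 without N251. Rab32, which serves lysosome-related organelles and phagosomes, read 8.35, 7.85, 7.23 and 7.06 in CD24- and 7.06, 6.85, 6.95 and 7.17 in TIC. In the pool the order turned, and the difference was -0.61 (SE 0.241, adjusted p = 0.216) and -0.39 without N251.

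Rab39, the mouse counterpart of human RAB39A and a Rab of phagosomes and late endosomes, read 7.45, 6.55, 6.35 and 6.26 in CD24- and 6.39, 5.97, 6.19 and 5.78 in TIC. TIC was lower in all 4 tumors, although the ranges overlapped, and the difference was -0.57 (SE 0.149, adjusted p = 0.12). The TIC mean of 6.08 lay near the lower quartiles of the TIC arrays, 6.05 to 6.25. Rab37, a Rab of regulated secretion described in mast cell granules, read 8.20, 7.67, 7.41 and 6.75 in CD24- and 7.09, 7.004, 7.03 and 6.83 in TIC. Its difference was -0.52 (SE 0.191, adjusted p = 0.198) and -0.32 without N251. It lay below 0 in N251, N260 and N283 and at 0.08 in the pool. Of 7 mast cell markers 0 were called, against backgrounds of 1.09% lower and 0.863% higher. Cpa3 (4.72 in CD24- and 4.79 in TIC), Mcpt4 (4.81 and 4.72), Ms4a2 (4.43 and 4.54) and Fcer1a (5.14 and 4.85) lay below the lower quartile of every array. Whether mast cell content differed was not tested. Rab20, of phagosome maturation, was lower in all 4 tumors by small amounts, at -0.56, -0.10, -0.05 and -0.10 (adjusted p = 0.331), with a mean of -0.20 and of -0.08 without N251.

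The other 5 leukocyte-list genes showed small mean differences. Rab31, which links the trans-Golgi to endosomes, differed by -0.85, -0.36, 0.20 and 0.68, so that its mean of -0.08 (adjusted p = 0.885) hid opposite signs over tumors. Rab27a, needed for the release of lytic granules by T cells, had a mean of -0.08 with an interval of -0.32 to 0.17. Rab44, a large Rab of granulocytes and mast cells, had a mean of 0.004 with an interval of -0.17 to 0.18. Rab7b, which moves receptors from endosomes to the Golgi, was at 8.90 ± 0.05 in CD24- and 8.98 ± 0.16 in TIC (SD, n = 4). Rab33a was dim throughout, between 4.26 and 4.67, below the lower quartile of every array. The adjusted p-values of these genes ran from 0.536 to 0.983.

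**Figure D3:**
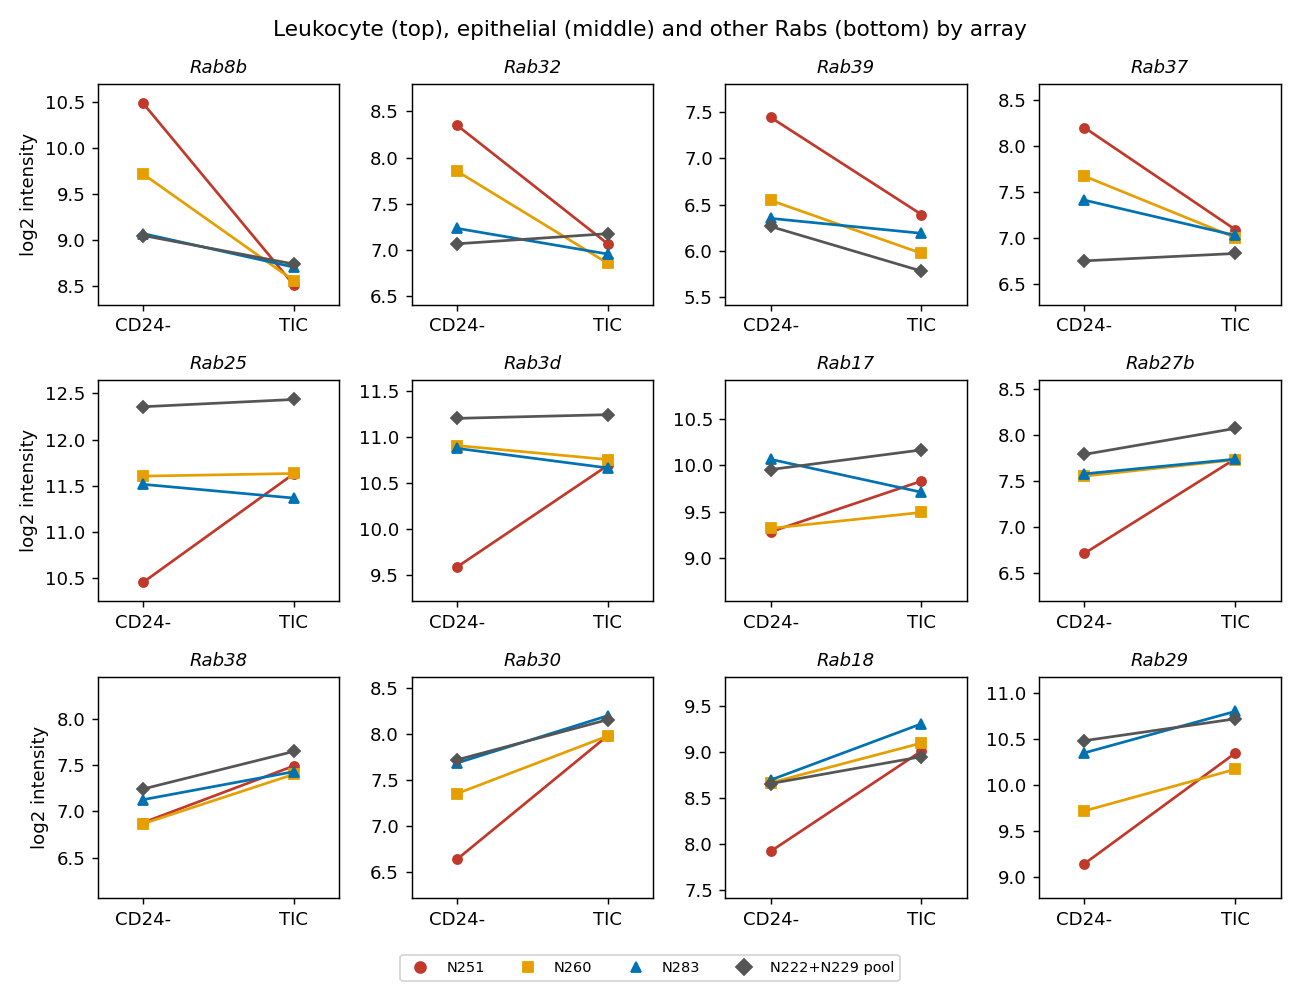
Log2 intensity (vertical axis) of 12 Rab genes on each of the 8 arrays, by fraction, with each tumor's pair of arrays shown; every panel spans 2.4 log2 units. In Rab8b, Rab30, Rab18 and Rab38 no array of one fraction reaches into the range of the other.

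Among the 10 ER and Golgi Rabs, TIC was higher in all 4 tumors for 5 genes and lower for 1. Rab30, a Golgi Rab, read 6.64, 7.35, 7.69 and 7.72 in CD24- and 7.98, 7.98, 8.20 and 8.16 in TIC. All TIC arrays lay above all CD24- arrays, with a difference of 0.73 (SE 0.164, 1.66-fold) and an adjusted p of 0.0924 with the tumor block and 0.0441 with the random block. Without N251 it was called in the blocked fit, at 0.53 with an adjusted p of 0.0322. Rab18, of lipid droplets and the ER, read 7.92, 8.67, 8.70 and 8.66 in CD24- and 9.01, 9.10, 9.31 and 8.95 in TIC, again without overlap. Its difference was 0.61 (SE 0.141, 1.52-fold, adjusted p = 0.0995 with the block and 0.0441 with the random block).

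Rab43, which acts at the Golgi and is also described in antigen presentation by dendritic cells, lay on the other side. It read 9.16, 8.69, 8.27 and 8.15 in CD24- and 7.94, 7.97, 8.00 and 8.01 in TIC. The CD24- arrays were all higher and had the same order as the leukocyte marker means, while the TIC arrays spread by only 0.03 (SD); the part of those cells was not tested. The difference was -0.59 (SE 0.189, adjusted p = 0.164) and -0.37 without N251. Of 7 dendritic cell markers 2, Cd209a and Siglech, were called lower. Itgax (-3.00), Clec9a (-0.346), Flt3 (-0.195) and Xcr1 (-0.152) were not called, and Zbtb46 differed by 0.07. Rab2a, of ER to Golgi transport, was the brightest of the role at 12.09 ± 0.33 in CD24- and 12.37 ± 0.10 in TIC (SD, n = 4), with a difference of 0.28 (adjusted p = 0.255) and 0.14 without N251. It had 2 rows whose annotated transcripts overlapped, at 12.23 and 11.21 over all arrays with differences of 0.28 and 0.20. Which locus each row reads was not resolved, so its level is uncertain. The housekeeping Golgi Rabs Rab1a, Rab1b and Rab6a differed by 0.08, 0.14 and 0.08, and Rab2b, Rab19 and Rab33b by -0.09, 0.27 and 0.14.

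The 13 early and recycling endosome Rabs had a median difference of 0.057, with 4 higher and 1 lower in all tumors. Rab4a, of rapid recycling, read 8.92, 9.76, 10.13 and 10.44 in CD24- and 10.26, 10.26, 10.30 and 10.48 in TIC. TIC was the higher in each pair, by 1.33, 0.50, 0.17 and 0.04 (mean 0.51, SE 0.22, adjusted p = 0.243), and without N251 the mean was 0.24. Rab4b, its relative in recycling, had the lowest mean of the role, at -0.34 (SE 0.195, adjusted p = 0.355) and -0.13 without N251. Rab10, a Rab of basolateral delivery, was the brightest of the role, at 11.86 ± 0.17 in CD24- and 11.92 ± 0.14 in TIC (SD, n = 4). Its 95% interval for the difference was -0.11 to 0.23. Rab5a, the early endosome fusion Rab, did not overlap between fractions because the arrays spread so little, from 9.27 to 9.34 in CD24- and from 9.36 to 9.52 in TIC, with a difference of 0.11 (adjusted p = 0.424). Rab14, which links the Golgi and endosomes, was lower in TIC in all 4 tumors at a mean of -0.14 (adjusted p = 0.32). The means of Rab11a, Rab11b, Rab8a, Rab21, Rab22a, Rab35, Rab5b and Rab5c lay between -0.12 and 0.19. Rab5b and Rab11b each had 2 rows with shared annotated transcripts. The rows of Rab5b were at 10.41 and 10.33 over all arrays, with differences of 0.194 and 0.215. Those of Rab11b were at 11.18 and 7.28, with differences of 0.065 and 0.076. Which locus each row reads was not resolved, so the levels of these genes are uncertain.

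Of the 7 late endosome and lysosome Rabs, 5 were higher in TIC in all tumors, with a median of 0.224 and 0 called. Rab29, which acts at the trans-Golgi and lysosomes and recruits the kinase Lrrk2, read 9.15, 9.72, 10.35 and 10.48 in CD24- and 10.35, 10.17, 10.80 and 10.72 in TIC. The ranges overlapped, while each pair had TIC higher, with a mean of 0.59 (SE 0.166, adjusted p = 0.135) and 0.38 without N251. Rab12, Rab34 and Rab36, linked to receptor degradation and lysosome position, differed by 0.29, 0.27 and 0.22 (adjusted p from 0.153 to 0.176), and Rab9 and Rab24 by 0.14 and 0.11. Rab7, which drives fusion of late endosomes with lysosomes and was the brightest of the role, read 10.82, 10.53, 10.57 and 10.95 in CD24- and 10.52, 10.35, 10.40 and 10.90 in TIC. It was the 1 member lower in all tumors, by -0.18 (SE 0.076, adjusted p = 0.243).

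The 7 Rabs known from neurons had a median difference of 0.019. Rab15, an endosomal Rab, was the brightest and had the largest difference of them. It read 9.10, 10.37, 10.52 and 11.19 in CD24- against 10.63, 10.70, 10.68 and 10.67 in TIC. The TIC arrays stayed within 0.03 (SD) while the CD24- arrays ran from 9.10 to 11.19, and the mean of 0.38 (adjusted p = 0.524) was -0.01 without N251 and the pool had the opposite sign. Rab3a, the synaptic vesicle Rab, was higher in TIC in all tumors at 0.32 (SE 0.106, adjusted p = 0.167). Rab3b, Rab3c, Rab6b, Rab9b and Rab39b had means between -0.07 and 0.05, and Rab3c was, with Rab33a, under the lower quartile of all arrays.

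In the remaining role, Rab38 had the smallest adjusted p of the 59 genes. Rab38, which with Rab32 delivers enzymes to melanosomes and related organelles, read 6.88, 6.87, 7.13 and 7.24 in CD24- and 7.50, 7.40, 7.43 and 7.65 in TIC. The fractions did not overlap and the differences were even over tumors, at 0.62, 0.54, 0.30 and 0.41, with a mean of 0.47 (SE 0.083, 95% interval 0.26 to 0.67, 1.38-fold). The adjusted p was 0.0587 with the block, 0.126 without it and 0.021 with the random block, and with each array centred on its median Rab38 was called. Of 5 melanocyte markers 0 were called (backgrounds 1.09% lower and 0.863% higher) and their median difference was 0.009. Tyr (4.78 in CD24- and 4.79 in TIC), Dct (5.37 and 5.21) and Tyrp1 (5.88 and 5.78) averaged below the lower quartiles of the arrays (6.05 to 6.28). Mlana (7.02 and 7.12) and Pmel (6.83 and 6.95) lay above them. Whether melanocyte content differed was not tested. Rab23, a negative regulator of Hedgehog signalling linked to cilia, read 7.05, 8.06, 8.05 and 7.82 in CD24- and 8.10, 8.38, 8.35 and 8.25 in TIC, without overlap (difference 0.53, SE 0.143, adjusted p = 0.126). Rab40c, a Rab with a ubiquitin ligase adaptor box and the brightest of the role, differed by -0.05 (adjusted p = 0.83), and Rab28, Rab40b and Rab42 differed by 0.25, 0.18 and 0.15.

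Some close relatives had differences of unlike size or sign. The 25 pairs were 21 of Rabs with the same number and 4 picked within subfamilies, not the full set of subfamily pairs. They were formed after the values were seen, so they are described without a test. In each pair the gene with the larger mean difference was put first. The difference of Rab38 exceeded that of Rab32 by 1.90, 1.54, 0.58 and 0.30 in the 4 tumors. Rab8a exceeded Rab8b by 1.80, 1.08, 0.46 and 0.39, since Rab8a differed between the fractions by only -0.02. Rab4a exceeded Rab4b by 2.30, 1.02 and 0.23 in the 3 single tumors but by -0.14 in the pool, and Rab39b exceeded Rab39 by 0.89, 0.64, 0.09 and 0.54. Rab27b exceeded Rab27a by 1.38, 0.23, 0.03 and 0.31. The order was the same in all 4 tumors for 8 of the 25 pairs, and 4 pairs had a mean gap of over 0.5.

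**Figure D4:**
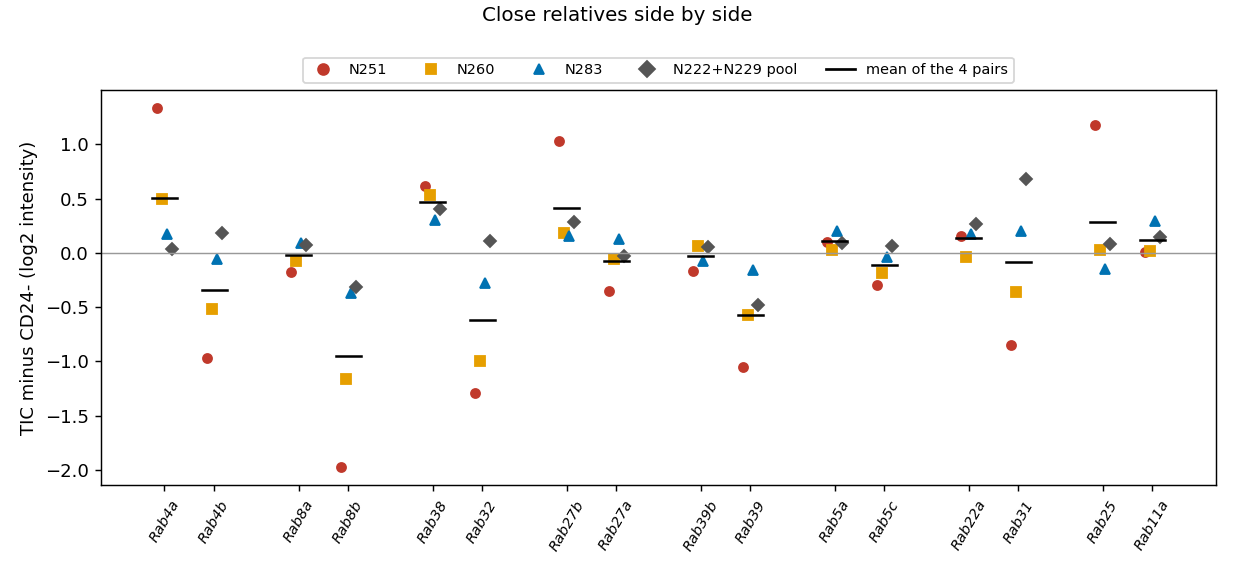
TIC minus CD24- difference (log2 intensity) of related Rabs side by side, with 1 symbol per tumor. Rab8b and Rab32 lie below 0 in most tumors, while their relatives Rab8a and Rab38 lie near or above 0.

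Of 108 measured genes that load, switch or read Rabs, 1 (0.926%) was called lower and 0 higher in TIC, near the backgrounds of 1.09% and 0.863%. The lists held 7 genes of prenylation and membrane extraction, 30 GEFs, 30 GAPs and 41 effectors. Rab3il1, a GEF of the Rabin family, fell in TIC. It read 10.56, 9.51, 8.53 and 7.90 in CD24- and 7.24, 6.998, 6.87 and 6.74 in TIC, without overlap. The fall was -2.17 (SE 0.349, adjusted p = 0.049 with the block, 0.0961 without it and 0.0169 with the random block), and -1.78 without N251. It was not called without N260 or without N283. The CD24- arrays again followed the order of the leukocyte marker means, and the part of those cells was not tested.

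Other GEFs, chosen after their values were seen, lay on the same side without a call in the blocked fit. Rin3, a GEF of the Rab5 group, differed by -2.02 (adjusted p = 0.0659) and Dennd1c, a DENN domain GEF, by -1.67 (adjusted p = 0.056). TIC was lower in all 4 tumors for 9 of the 30 GEFs (background 11.8%) and higher in all for 8 (background 23.2%). Their median difference was 0.00. The fractions did not overlap for 7 GEFs with TIC lower (background 4.68%) and 4 with TIC higher (background 5.19%). With the random block 4 GEFs were called lower and 1 higher, against backgrounds of 3.04% and 2.16%. The excess on the lower side was not tested. Of the 41 effectors, 14 were higher in TIC in all 4 tumors (background 23.2%) and 3 lower (background 11.8%). Among those named after their values were seen, the motor Myo5a differed by -1.51 (adjusted p = 0.128) and the actin oxidase Mical1 by -1.15 (adjusted p = 0.103), while the related motors Myo5b and Myo5c differed by 0.58 (adjusted p = 0.16) and 0.60 (adjusted p = 0.182). Rab11fip2, which couples Rab11 to a myosin, differed by 0.53 (adjusted p = 0.0947). Rab3gap2, the non-catalytic subunit of the Rab3 GAP complex, differed by 0.31 (adjusted p = 0.101) with 9.36 ± 0.08 in CD24- and 9.67 ± 0.06 in TIC (SD, n = 4). Chm, a Rab escort protein, differed by 0.16 (adjusted p = 0.252). The medians were 0.078 for the prenylation list, 0.061 for GAPs and 0.104 for effectors, beside 0.038 for all genes.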

How the data were processed

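The authors deposited log2 intensities. The submitters' processing notes name RMA and Partek; their settings and the build are unstated in the sources used. Values ran from 1.76 to 14.6 and array medians from 7.03 to 7.18. Precision is limited by there being 8 arrays. Of 35556 rows, 21789 had 1 gene symbol, 1621 several and 12146 none in the platform annotation. RefSeq gene identifiers (GRCm38.p6, also the source of the promoters) matched 21698 and renamed 0. Titles name tumors N251 and N260 where the growth protocol has N250 and N261, and the titles were followed.

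A linear model with fraction and tumor (as a block) was run on all 19938 genes with lmFit and eBayes of limma 3.58.1 (R 4.3.3). A call needed an adjusted p (Benjamini-Hochberg over all genes) under 0.05, and 95% intervals are unadjusted. Both fractions of a pair came from the same tumor or pool per the labels, and deviations of paired arrays correlated at 0.322, 0.435, 0.300 and 0.557. The fit was also run on simulated data with normal noise of the same SD in both fractions. In the real data 65.3% of genes had the larger SD in CD24-, which the simulation did not cover. The members and lists were chosen with earlier results of these data known.

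The naming rule took all epithelial and leukocyte Rabs, called Rabs, and in each other role the brightest member, the one with the largest difference and those with the same sign in all tumors and a mean of 0.5 or more in size. It took called partners, or the partner of smallest p in each list, and Epcam, Krt8, Ptprc and Csf1r. Other members, other markers, Rin3, Dennd1c, Myo5a, Myo5b, Myo5c and Mical1 were named after their values were seen. Proteins were not used here.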

Additional observations from a re-analysis of the deposited data

Results flagged for a closer look

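In 10 of 122 groups of 4 arrays examined (each Rab gene and the epithelial and leukocyte list means, in each fraction), 1 array stood far from the other 3 by Dixon's criterion at 95%, where chance gives about 6. Of these, 5 concerned the pool in the TIC fraction. There, Rab13 read 6.63 (others 7.08 to 7.17), Rab22a 10.01 (8.99 to 9.14), Rab27b 8.07 (7.73 to 7.74), Rab2b 9.51 (8.25 to 8.34) and Rab3d 11.24 (10.66 to 10.75). Tumor N283 in TIC stood high for Rab1a at 12.15 (11.88 to 11.90) and for Rab5a at 9.52 (9.36 to 9.39). In the CD24- fraction, N251 was low for Rab18 at 7.92 (8.66 to 8.70), N260 was low for Rab39b at 5.90 (6.07 to 6.10) and the pool was high for Rab8a at 11.24 (10.46 to 10.55).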

How the results depend on the processing

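The mean differences of the epithelial and leukocyte lists and their contrast kept their sign under median centring, quantile normalization, cyclic loess, the mean of a gene's rows and each left-out tumor, with ranges of 0.013 to 0.313, -0.381 to -0.131 and 0.144 to 0.665. The lowest size in each came without N251. Calls of Rabs on the lower side were 0 in all alternatives. On the higher side there were 3 with a random block, 2 with array weights (Rab30, Rab38), 1 with median centring (Rab38) and 0 to 1 with a tumor left out (Rab30 without N251). Called partners on the lower side were 0 with no replicate block, genes at or above the median level, eBayes with trend and robust, quantile normalization, cyclic loess or an adjusted p under 0.01. They were 4 with a random block, 4 with array weights and 0 to 4 with a tumor left out, and 3 partners were called higher with a random block. All genes called lower (218) became 148 with no replicate block, 606 with a random block, 88 at or above the median level, 115 with quantile normalization, 120 with cyclic loess, 572 with array weights, 0 at an adjusted p under 0.01 and 0 to 480 with a tumor left out. All genes called higher (172) became 10 with no replicate block, 430 with a random block, 63 at or above the median level, 84 with cyclic loess, 445 with array weights, 0 at an adjusted p under 0.01 and 0 to 360 with a tumor left out. Without N260 or N283, 0 genes were called either way, and without N251 the counts were 480 lower and 360 higher, and without the pool 299 and 74. Cyclic loess moved the median difference of all genes from 0.038 to -0.002 and median centring to 0.071. Of 373 single-gene results for 27 Rabs, 14 changed sign, in 10 genes of at most 0.377 in size. Cyclic loess gave -0.05 for Rab10, -0.056 for Rab44 and -0.039 for Rab7b, and array weights 0.002 for Rab31 and -0.005 for Rab3d. With a tumor left out the difference ran from -0.01 to 0.675 for Rab15, -0.013 to 0.429 for Rab25, -0.059 to 0.199 for Rab26, -0.144 to 0.016 for Rab27a, -0.335 to 0.176 for Rab31, -0.108 to 0.33 for Rab3d, -0.153 to 0.031 for Rab40c and -0.028 to 0.021 for Rab44. The cause of these changes was not tested. Whether Rab33a and Rab3c, under the lower quartile of all arrays, exceed background was not tested.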
